A study of Mus musculus with 23 samples.

Results

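Alcohol dehydrogenases and aldehyde dehydrogenases were followed in the livers of mice given an alcohol that sulfotransferases activate. The set held 9 genes, Adh1, Adh4, Adh5, Adh7, Aldh1a1, Aldh1a7, Aldh1b1, Aldh2 and Aldh9a1, out of 18193 genes that had a probe set of their own on the array. They were chosen by name, as enzymes that oxidise alcohols and the aldehydes formed from them, and not by a rule on their measured values. Earlier results of these data were known when they were chosen. All probe sets that the platform annotation gave to 1 of these genes alone were taken, which were 16 of 45037 mouse probe sets, and none was shared with another gene. Each gene was represented by whichever of its probe sets had the highest mean signal across the 23 arrays. Aldh2 had 5 probe sets, Adh5, Adh7 and Aldh9a1 had 2 each, and the other 5 genes had 1 each.

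The animals were male mice of the strain labelled hemizygous FVB/N-SULT1A1/2, so the controls carried the human SULT1A1 and SULT1A2 transgenes as well, and their labelled age was 5 weeks in all 4 groups. Dosing was with 1-methoxy-3-indolylmethyl alcohol (1-MIM-OH), a breakdown product of a glucosinolate of cabbage plants, given by mouth at 26 mg/kg on 3 days a week to the treated mice, while the vehicle mice had glyceryl trioctanoate alone. Livers were taken 24 h after the last dose, after 10 treatments over 21 d (5 treated and 6 vehicle mice) or 40 treatments over 90 d (6 treated and 6 vehicle mice). Whole-liver RNA of each mouse was hybridised to 1 Affymetrix Mouse Genome 430 2.0 array, and the submitters excluded the array of 1 more treated mouse of the 21 d group, which was not analysed here.

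Alcohol dehydrogenases oxidise alcohols to aldehydes with NAD+, and aldehyde dehydrogenases oxidise the aldehydes to carboxylic acids. In the liver the same enzymes handle ethanol, retinol, formaldehyde and aldehydes from lipid peroxidation. For an alcohol such as 1-MIM-OH, oxidation leads towards an acid, whereas sulfation leads to a reactive ester, so the routes can compete for the same substrate.

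No dehydrogenase of the set passed the test at either time. With limma and Benjamini-Hochberg adjustment over all 45037 probe sets, 0 of 9 genes had an adjusted p under 0.05 for treated against vehicle mice at 21 d, where 1.17% of the 18193 genes passed. At 90 d again 0 of 9 genes passed, where 0.748% of all genes did. At an unadjusted p under 0.05 the count was 0 of 9 at both times, against 16.6% of all genes at 21 d and 12.1% at 90 d. The lowest adjusted p among the 9 genes was 0.450 at 21 d and 0.554 at 90 d. The median absolute difference between treated and vehicle mice over the 9 genes was 0.04 on the log2 scale at 21 d and 0.06 at 90 d, beside 0.09 and 0.08 over all genes. The probe sets that represent Adh1, Adh5, Aldh1a1, Aldh1a7, Aldh2 and Aldh9a1 lay between the 99.19th and 99.89th percentile of mean signal. Whether signals that high still follow the RNA amount was not tested. Of the 9 differences, 5 were positive and 4 negative at 21 d, and 7 were positive and 2 negative at 90 d. In no gene of the set did the treated and the vehicle arrays of 1 time separate fully, which 2.81% of all genes did at 21 d and 1.35% at 90 d. The genes listed as a check of treatment moved in the same mice: among 6 targets of the damage-response factor p53, 4 rose at 21 d and 5 at 90 d. These 6 were listed with earlier results of these data known, so their rise is no independent sign that the treatment acted. Of the 4 calls at 21 d, that of Ccng1 (0.54, limma adjusted p = 0.0385) was lost on leaving out any of 10 arrays, which were treated replicates 1, 3, 4 and 5 and vehicle replicates 1 to 6 of that time (adjusted p up to 0.0838). Averaged over the probe sets of each gene, Ccng1 (0.55, adjusted p = 0.112) and Aen (0.23, against 0.57 with its highest probe set, adjusted p = 0.178) did not pass at 21 d. With the replicate number as a block, Ccng1 at 21 d had 0.48 (adjusted p = 0.0696). The cell-cycle inhibitor Cdkn1a, 1 of the 6 targets counted above, had a log2 difference of 2.60 ± 0.36 (SE, limma adjusted p = 0.00135) at 21 d and 3.67 ± 0.34 (adjusted p = 2.13e-06) at 90 d.

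**Figure D1:**
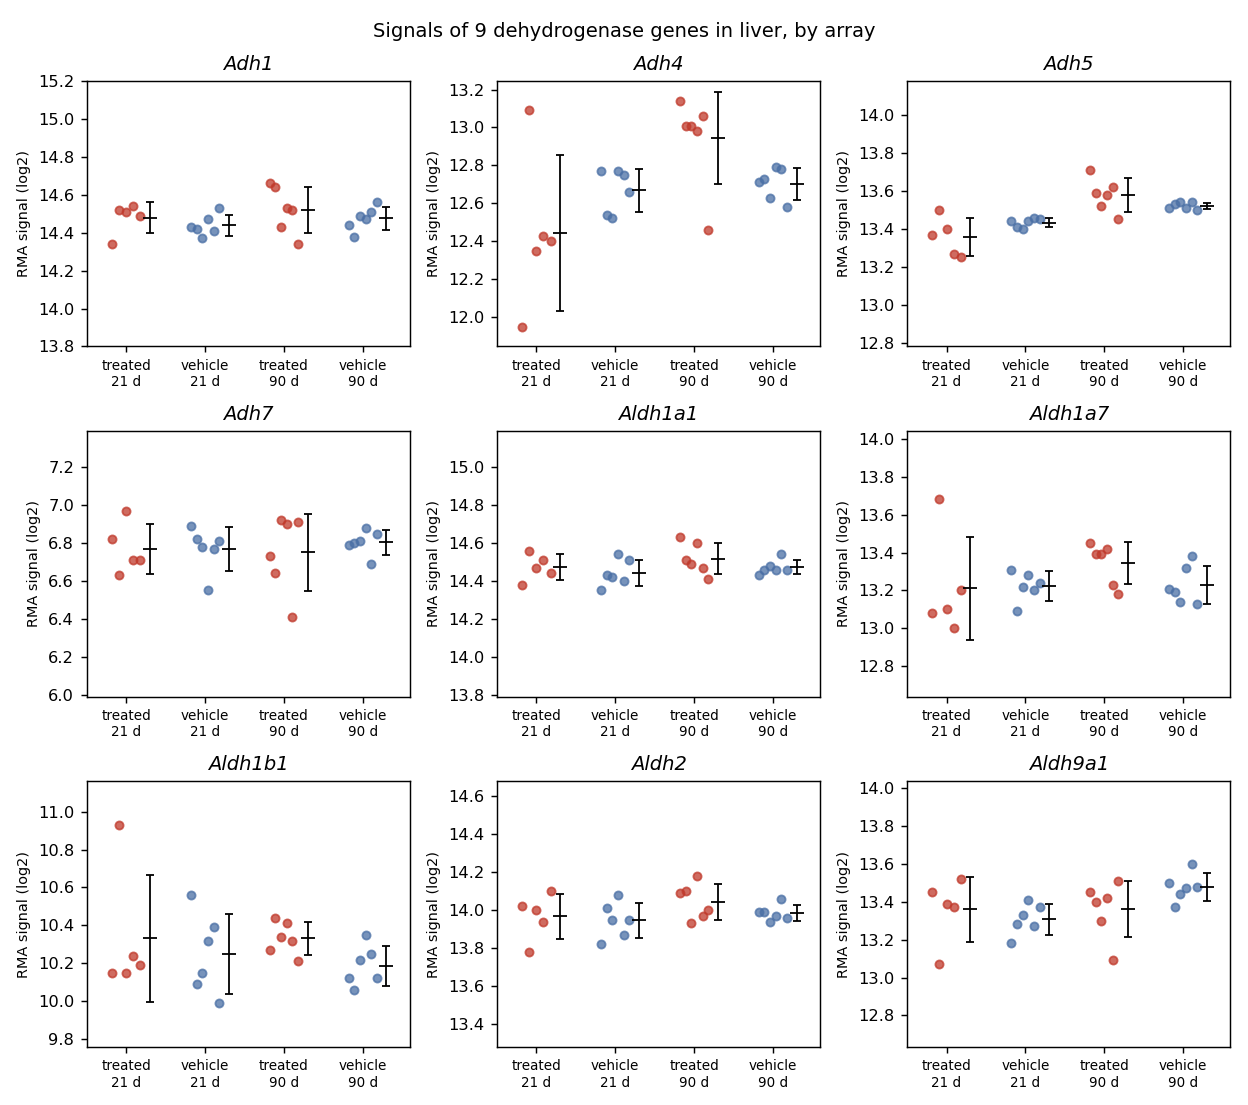
Log2 RMA signal of each of the 9 genes (1 panel each, every panel with the same span of signal) on 23 arrays, with treated and vehicle mice side by side at 21 d and 90 d; points are arrays, black marks are the group mean ± SD. Treated and vehicle ranges overlap at each time in every panel, although for Adh4 every treated point lies outside the vehicle range of its time. Adh4, Aldh1a7 and Aldh1b1 have treated arrays that stand far from their group.

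The arrays were of near equal median, from 5.53 to 5.61 on the log2 scale, and correlated within groups at 0.984 to 0.997. The liver label was borne out by 6 hepatocyte markers, whose mean log2 signal was between 14.28 and 14.55 on every array. The control probe sets showed a difference between the groups at 21 d: the 3' minus 5' signal of Gapdh averaged 1.00 ± 0.51 (SD, n = 5) in treated and 0.33 ± 0.13 (n = 6) in vehicle mice at 21 d, a log2 difference of 0.67 (2-sided exact permutation p = 0.0216). A larger 3' minus 5' difference is a sign of shorter RNA or labelled product. At 90 d the means were 0.53 ± 0.40 in treated and 0.50 ± 0.15 in vehicle mice (n = 6 each, exact permutation p = 0.909). In all, 5 arrays had a Gapdh difference over 0.9, all of them from treated mice: replicates 1, 3, 4 and 5 at 21 d and replicate 6 at 90 d. Of the p53 targets named, Ccng1 and Aen did not pass at 21 d without these 5 arrays (0.58 and 0.77, limma adjusted p = 0.212 and 0.0535, with 1 treated array left), nor Ccng1 in a fit with that Gapdh value as covariate (0.68, adjusted p = 0.0619). A further array that stood apart was replicate 2 of the treated mice at 21 d, with a mean log2 signal of 13.83 over 14 acute phase genes, against 11.20 to 11.64 in the other treated mice of that time, and of 11.18 over 8 Kupffer cell markers, against 8.07 to 8.62. Vehicle mice at 21 d covered 11.37 to 13.03 for the acute phase genes and 8.52 to 10.76 for the Kupffer cell markers. At 90 d the Kupffer cell markers spanned 8.38 to 10.17 in treated and 8.31 to 9.86 in vehicle mice. No gene of either list passed the test at either time, beside 1.17% of all genes at 21 d and 0.748% at 90 d. In whole-liver RNA, fewer cells of a type and less RNA per cell cannot be told apart.

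The alcohol dehydrogenases form a cluster on chromosome 3, in the order Adh7, Adh1, Adh6a, Adh6b, Adh4, Adh5 among the protein-coding genes of RefSeq. Adh4 encodes the class II enzyme, a liver enzyme for larger and more hydrophobic alcohols and for retinol, and among the probe sets that represent the 9 genes its signal had the widest range over the arrays. Its promoter is shown for that reason, as the 250 bases before the RefSeq start on GRCm38.p6 at chr3:138415247-138415496, plus strand; the capitals mark the only match to the motifs searched, a CCAAT box read on the opposite strand (ATTGG) at positions -90 to -86 from the start.
Adh4: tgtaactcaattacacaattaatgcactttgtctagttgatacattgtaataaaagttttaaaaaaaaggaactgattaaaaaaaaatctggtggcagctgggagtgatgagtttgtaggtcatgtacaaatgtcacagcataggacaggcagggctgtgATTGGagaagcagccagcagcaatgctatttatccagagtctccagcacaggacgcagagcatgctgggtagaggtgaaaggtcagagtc
The motifs searched on both strands were the TATA box core TATAAA, the box CCAAT, the GC box GGGCGG, the C/EBP-type element TTGCNNAA and the STAT-type element TTCNNNGAA; matches of different motifs do not overlap in the windows printed here, and 33.8% of 32851 mouse promoters of the same length hold CCAAT. Of the Adh4 promoter, 41.6% is G or C, and it holds 1 CpG.

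Adh4 varied widely among treated mice, on both sides of the vehicle mice. At 21 d its log2 signals were 11.95, 13.09, 12.35, 12.43 and 12.40 in treated mice, against 12.77, 12.54, 12.52, 12.77, 12.75 and 12.66 in vehicle mice. At 90 d they were 13.14, 13.01, 13.01, 12.98, 13.06 and 12.46 in treated mice, against 12.71, 12.73, 12.63, 12.79, 12.78 and 12.58 in vehicle mice. Thus 4 treated mice lay below all vehicle mice at 21 d and 1 lay above them, while 5 treated mice lay above all vehicle mice at 90 d and 1 lay below them. The difference was -0.22 ± 0.14 at 21 d (SE, 95% interval -0.50 to 0.05, limma adjusted p = 0.450) and 0.24 ± 0.13 at 90 d (interval -0.03 to 0.51, adjusted p = 0.554). The effect at 90 d minus the effect at 21 d was 0.46 ± 0.19 (interval 0.08 to 0.85, unadjusted p = 0.0204, adjusted p = 0.492). It was 0.09 ± 0.14 with the Gapdh control difference as a covariate and -0.09 ± 0.13 without the 5 arrays over 0.9 (adjusted p = 1.00 and 0.967), so its size and its sign depend on the handling of those arrays.

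The arrays with the largest Gapdh control differences had the lowest Adh4 signals. The 5 arrays with a Gapdh difference over 0.9 had Adh4 signals from 11.95 to 12.46, the other 6 treated arrays from 12.98 to 13.14, and the 12 vehicle arrays from 12.52 to 12.79, with no overlap between any of these ranges. In the Gapdh difference itself the other 6 treated arrays (0.14 to 0.63) and the vehicle arrays (0.09 to 0.74) overlapped. Among the 5 arrays the lowest Adh4 signal, 11.95, came with 1.18 and the largest Gapdh difference, 1.45, with 12.40. In the other 6 treated arrays, differences of 0.14, 0.14, 0.21, 0.36, 0.60 and 0.63 came with Adh4 at 13.14, 13.09, 13.01, 13.06, 12.98 and 13.01. Whether Adh4 follows the Gapdh difference within these ranges was not tested. Adh4 was the only gene of the 9 whose 5 arrays over 0.9 separated from the other 18, which 1.36% of all genes did, and the only gene whose other 6 treated arrays separated from the 12 vehicle arrays, which 0.868% of all genes did. With the Gapdh control difference added to the fit as a covariate, the Adh4 difference was 0.17 ± 0.11 at 21 d (limma adjusted p = 0.758) and 0.26 ± 0.08 at 90 d (adjusted p = 0.157). Without the 5 arrays, Adh4 passed at 90 d with 0.34 ± 0.06 (adjusted p = 0.00923, n = 5 treated and 6 vehicle). Only 1 of the 5, replicate 6, belongs to 90 d, and leaving out that array alone gave the same difference of 0.34 with an SE of 0.12 (adjusted p = 0.220), so the pass came with the smaller residual spread once the 4 arrays of 21 d were left out too. At 21 d that leaves 1 treated array, and the value was 0.42 ± 0.11 (adjusted p = 0.0867), which assumes that the lone array varies like the other groups. Without treated replicate 2 at 21 d in turn, the remaining 4 treated arrays, all with a Gapdh difference over 0.9, gave a difference of -0.39 ± 0.11 (adjusted p = 0.0415). The direction for Adh4 at 21 d thus depends on which treated arrays are used.

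**Figure D2:**
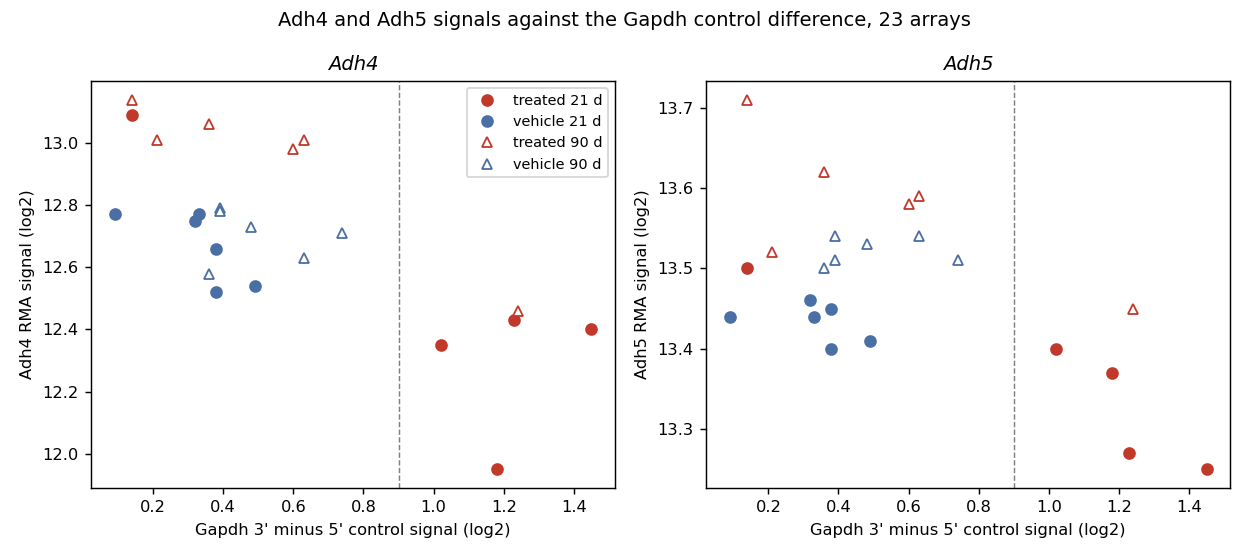
Log2 RMA signal of Adh4 (left) and Adh5 (right) against the Gapdh 3' minus 5' control difference (log2) on 23 arrays; red marks treated mice, blue vehicle mice, circles 21 d, triangles 90 d, and the dashed line a difference of 0.9. The 5 arrays right of the line carry the 5 lowest Adh4 signals, 11.95 to 12.46.

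Adh5 encodes the class III enzyme, which oxidises the glutathione adduct of formaldehyde and reduces S-nitrosoglutathione. Its signals in vehicle mice were very close together, with an SD of 0.023 at 21 d and 0.017 at 90 d. In treated mice the signals were 13.37, 13.50, 13.40, 13.27 and 13.25 at 21 d, where vehicle mice had 13.40 to 13.46, and 13.71, 13.59, 13.52, 13.58, 13.62 and 13.45 at 90 d, where vehicle mice had 13.50 to 13.54. Treated mice thus lay on both sides of the vehicle range at each time. The SD in treated mice was 4.36 times that in vehicle mice at 21 d and 5.13 times at 90 d. The mean difference was -0.08 ± 0.05 at 21 d (SE, 95% interval -0.19 to 0.04, limma adjusted p = 0.542) and 0.06 ± 0.05 at 90 d (interval -0.05 to 0.16, adjusted p = 0.761). The lowest treated arrays were again among those with a Gapdh difference over 0.9, which spanned 13.25 to 13.45, whereas the other treated arrays spanned 13.50 to 13.71. The other Adh5 probe set, 1443380_at, had a mean signal of 4.82 and differed by -0.12 at 90 d (adjusted p = 0.537).

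Adh1 encodes the class I enzyme, the main ethanol and retinol dehydrogenase of mouse liver. Its signal averaged 14.48 ± 0.08 in treated and 14.44 ± 0.06 in vehicle mice at 21 d (SD, n = 5 and 6), and 14.52 ± 0.12 in treated and 14.48 ± 0.06 in vehicle mice at 90 d (n = 6 each). The fold difference was 1.03 at 21 d (95% interval 0.944 to 1.12, limma adjusted p = 0.806) and had an adjusted p of 0.843 at 90 d, where the log2 interval was -0.07 to 0.16. The log2 interval at 21 d was -0.08 to 0.17.

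Adh7 encodes the class IV enzyme, best known from the lining of the upper digestive tract, where it oxidises retinol and ethanol. Its mean log2 signal was 6.77 over all arrays for 1450110_at and 6.14 for the other probe set, 1421058_at. With 1450110_at the treated mean was 6.77 ± 0.13 and the vehicle mean 6.77 ± 0.12 at 21 d (SD, n = 5 and 6, limma adjusted p = 0.995), and 6.75 ± 0.20 and 6.80 ± 0.07 at 90 d (treated and vehicle mice, adjusted p = 0.876). The log2 intervals of the difference were -0.18 to 0.17 at 21 d and -0.22 to 0.12 at 90 d. Probe set 1421058_at differed by -0.16 at 90 d (adjusted p = 0.587). Whether signals at this level lie above background was not tested, because the deposited values carry no detection call.

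Aldh1a1 and Aldh1a7 are neighbouring paralogues on chromosome 19, with Aldh1a1 encoding a cytosolic enzyme that oxidises retinaldehyde to retinoic acid. Their promoters are shown because they are near copies next to the start: the second RefSeq promoter entry of Aldh1a1 (chr19:20601718-20601967, plus strand) and the entry of Aldh1a7 (chr19:20727557-20727806, minus strand), both on GRCm38.p6, are identical at 94 of the last 100 bases before the start, but at 129 of 250 bases (51.6%) over the whole window without gaps. The first Aldh1a1 entry is identical to that of Aldh1a7 at 30 of those 100 bases. Capitals mark matches to TATAAA and CCAAT.
Aldh1a1: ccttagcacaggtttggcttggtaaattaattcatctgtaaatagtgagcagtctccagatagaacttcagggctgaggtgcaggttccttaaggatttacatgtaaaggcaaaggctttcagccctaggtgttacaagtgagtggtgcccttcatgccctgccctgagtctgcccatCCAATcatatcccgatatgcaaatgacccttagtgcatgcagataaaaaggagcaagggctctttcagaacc
Aldh1a7: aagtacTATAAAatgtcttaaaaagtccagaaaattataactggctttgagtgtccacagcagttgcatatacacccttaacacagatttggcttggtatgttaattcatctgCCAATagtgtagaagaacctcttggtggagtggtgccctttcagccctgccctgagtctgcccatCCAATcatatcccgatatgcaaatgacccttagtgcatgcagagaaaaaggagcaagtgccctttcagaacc
Each holds a CCAAT match at positions -72 to -68 from its start, Aldh1a7 holds a further one at -137 to -133 and a TATAAA match at -244 to -239, and 12.4% of all mouse promoters of this length hold TATAAA. Which start is used in these livers was not tested. Transcripts of such close paralogues could bind to each other's probes, so the values of both genes are uncertain in that respect.

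Aldh1a1 signals lay close together in all groups, around a mean of 14.48 (the 99.89th percentile of probe set means). They ran from 14.38 to 14.56 in treated and from 14.35 to 14.54 in vehicle mice at 21 d, and from 14.41 to 14.63 in treated and from 14.43 to 14.54 in vehicle mice at 90 d. The difference was 0.03 ± 0.05 at 21 d (SE, 95% interval -0.08 to 0.14, limma adjusted p = 0.849) and 0.05 ± 0.05 at 90 d (interval -0.06 to 0.15, adjusted p = 0.808).

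Aldh1a7 signals were 13.08, 13.68, 13.10, 13.00 and 13.20 in treated mice at 21 d, against 13.09 to 13.31 in vehicle mice. At 90 d they ran from 13.18 to 13.45 in treated and from 13.13 to 13.38 in vehicle mice. The treated and vehicle ranges overlapped at both times, and the mouse at 13.68 was replicate 2, the one with the high acute phase and Kupffer cell signals. The difference was -0.01 ± 0.09 at 21 d (SE, interval -0.20 to 0.18, limma adjusted p = 0.973) and 0.12 ± 0.09 at 90 d (interval -0.06 to 0.29, adjusted p = 0.704). The 5 arrays with a Gapdh difference over 0.9 spanned 13.00 to 13.20, the other treated arrays 13.23 to 13.68 and the vehicle arrays 13.09 to 13.38. Replicate 2 stood clear of the other treated mice at 21 d for Aldh1a7 (13.68, against at most 13.20) but not for Aldh1a1 (14.56, against at most 14.51).

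Aldh1b1 encodes a mitochondrial enzyme that oxidises acetaldehyde and other small aldehydes. Its signals were 10.15, 10.93, 10.15, 10.24 and 10.19 in treated and 10.56, 10.09, 10.15, 10.32, 10.39 and 9.99 in vehicle mice at 21 d. At 90 d they were 10.27, 10.44, 10.34, 10.41, 10.32 and 10.21 in treated and 10.12, 10.06, 10.22, 10.35, 10.25 and 10.12 in vehicle mice. The highest mouse of each 21 d group, treated replicate 2 and vehicle replicate 1, was also the one with the highest acute phase signal of its group, 13.83 and 13.03. This was not so at 90 d, where the highest acute phase signals were those of treated replicate 3 (13.31) and vehicle replicate 2 (12.89), with Aldh1b1 at 10.34 and 10.06, the second of these the lowest of its group. The part of the acute phase in these values was not tested. The difference was 0.08 ± 0.12 at 21 d (SE, 95% interval -0.16 to 0.32, limma adjusted p = 0.802) and 0.15 ± 0.11 at 90 d (interval -0.08 to 0.37, adjusted p = 0.709). Without the 5 arrays with a Gapdh difference over 0.9, Aldh1b1 passed at 21 d with 0.68 ± 0.16 (adjusted p = 0.0442), a value that rests on replicate 2 alone as the treated array.

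Aldh2 encodes the mitochondrial enzyme that clears acetaldehyde after ethanol and also oxidises the lipid aldehyde 4-hydroxynonenal. Its highest probe set, 1448143_at, ran from 13.78 to 14.10 in treated and from 13.82 to 14.08 in vehicle mice at 21 d, and from 13.93 to 14.18 in treated and from 13.94 to 14.06 in vehicle mice at 90 d. The difference was 0.02 ± 0.06 at 21 d (SE, 95% interval -0.11 to 0.15, limma adjusted p = 0.919) and 0.06 ± 0.06 at 90 d (interval -0.06 to 0.18, adjusted p = 0.787).

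The 5 probe sets of Aldh2 disagreed with each other. Probe sets 1434988_x_at and 1434987_at differed by -0.01 and -0.10 at 21 d and by 0.00 and -0.01 at 90 d between treated and vehicle mice, with no call. Probe set 1437410_at gave 8.61, 7.84, 8.04, 9.50 and 8.57 in treated and 7.26, 7.05, 8.32, 6.75, 7.88 and 7.88 in vehicle mice at 21 d, overlapping ranges, with a difference of 0.99 ± 0.34 (SE, unadjusted p = 0.00757, limma adjusted p = 0.142), and a difference of 0.14 at 90 d. With the Gapdh covariate the difference at 21 d was 0.60 ± 0.41 (adjusted p = 0.768), and without the 5 arrays over 0.9 it was 0.32 ± 0.58 (adjusted p = 0.928). Its range over all arrays, 6.75 to 9.50, was the widest of the 5. Probe set 1457155_at gave 7.71, 7.92, 7.44, 7.94, 7.48 and 7.67 in treated and 7.44, 7.48, 7.20, 7.20, 7.48 and 7.30 in vehicle mice at 90 d, where 4 of 6 treated mice lay above all vehicle mice. The difference was 0.34 ± 0.08 at 90 d (SE, unadjusted p = 0.000434, adjusted p = 0.0663) and 0.19 ± 0.09 at 21 d (adjusted p = 0.292). At 90 d this probe set passed with array weights (0.37, adjusted p = 0.0259), with the Gapdh covariate (0.34, adjusted p = 0.0453), and without treated replicate 3 (0.39, adjusted p = 0.0206) or treated replicate 5 (0.39, adjusted p = 0.0485) of the 90 d group. It did not pass with the replicate block (0.34, adjusted p = 0.108), with only the groups compared (0.34, adjusted p = 0.166), with an intensity trend and robust prior (0.34, adjusted p = 0.0766) or without the 5 arrays (0.35, adjusted p = 0.0792). Over all 16 probe sets of the 9 genes, 0 passed at either time with the settings used throughout, where 0.957% of all probe sets passed at 21 d and 0.502% at 90 d. At an unadjusted p under 0.05, 2 of 16 probe sets at 21 d and 1 of 16 at 90 d, all of Aldh2, stood beside 15.8% and 10.2% of all probe sets.

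**Figure D3:**
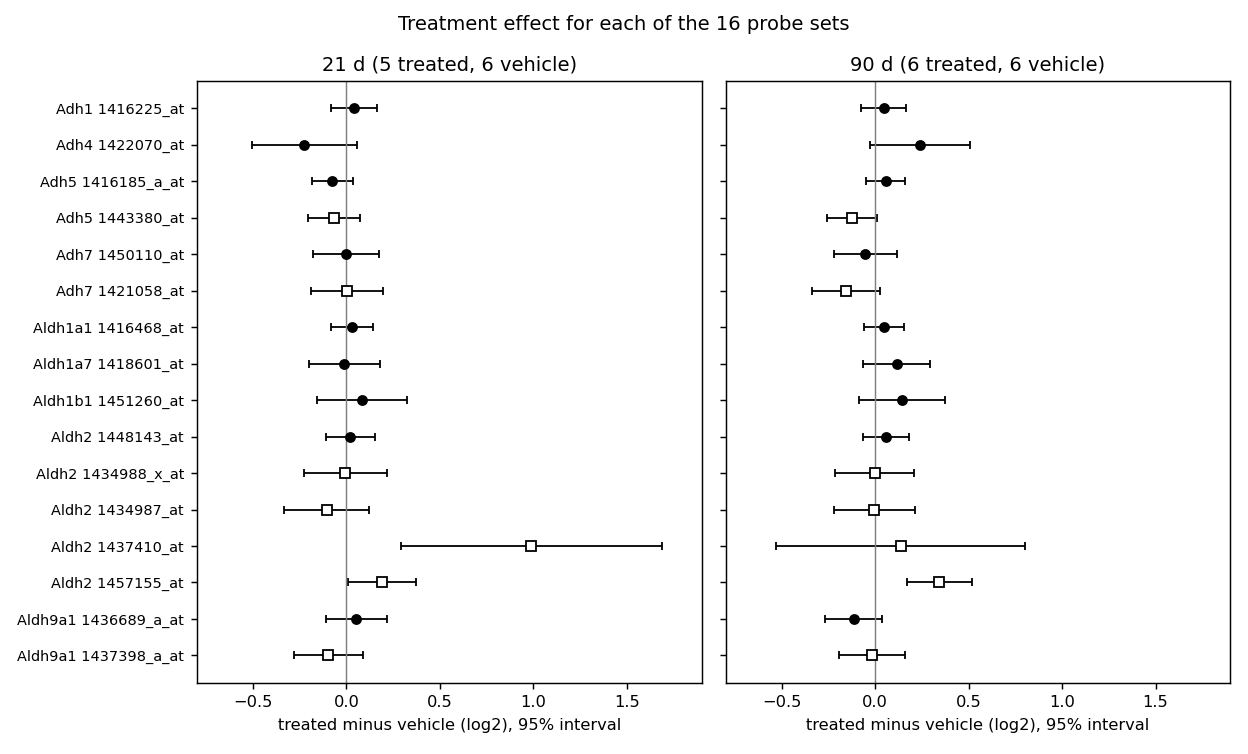
Treated minus vehicle signal (log2, with 95% interval) for the 16 probe sets at 21 d (left) and 90 d (right); filled circles are the probe sets that represent each gene, open squares the others. The intervals of all 9 filled circles include 0 at both times, and Aldh2 1437410_at at 21 d and 1457155_at at both times lie to the right of 0.

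Aldh9a1 encodes an enzyme that oxidises aminoaldehydes, among them the precursor of butyrobetaine in the carnitine route. Its signals were 13.45, 13.07, 13.39, 13.37 and 13.52 in treated mice and 13.18 to 13.41 in vehicle mice at 21 d. At 90 d they ran from 13.09 to 13.51 in treated and from 13.37 to 13.60 in vehicle mice. The ranges overlapped, and the difference was 0.05 ± 0.08 at 21 d (SE, 95% interval -0.11 to 0.21, limma adjusted p = 0.810) and -0.12 ± 0.07 at 90 d (interval -0.27 to 0.04, adjusted p = 0.639). The other probe set, 1437398_a_at, had a mean of 12.25 and also did not pass.

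No gene of the set had an effect that passed for the difference between 90 d and 21 d: 0 of 9 passed, beside 0% of all genes. At an unadjusted p under 0.05 the count was 1 of 9, Adh4, beside 8.64% of all genes, and that value was 0.09 with the Gapdh covariate and -0.09 without the 5 arrays. Between vehicle mice of 90 d and of 21 d, 0 of 9 genes passed, beside 0.011% of all genes, and 1 of 9, Aldh9a1, had an unadjusted p under 0.05, beside 6.43%. Aldh9a1 was higher in vehicle mice at 90 d by 0.17 ± 0.07 (SE, limma adjusted p = 0.800). Adh5 was the only gene of the set whose vehicle arrays at 90 d (13.50 to 13.54) and at 21 d (13.40 to 13.46) did not overlap, which 0.808% of all genes did. That difference was 0.09 ± 0.05 (limma adjusted p = 0.884, and 0.555 in a fit of the vehicle groups alone). The SE of 0.05 draws on all 4 groups, while vehicle mice had an SD of 0.023 at 21 d and 0.017 at 90 d. Between treated mice of 90 d and of 21 d, 0 of 9 genes passed, beside 0.0934% of all genes, and Adh4 (0.50 ± 0.14, adjusted p = 0.142) and Adh5 (0.22 ± 0.05, adjusted p = 0.117) had an unadjusted p under 0.05, beside 13.3% of all genes. The arrays of these groups overlapped in each of the 9 genes, while 0.616% of all genes had no overlap. Without treated replicate 2 at 21 d these became 0.66 (adjusted p = 0.00336) for Adh4 and 0.26 (adjusted p = 0.0143) for Adh5, and Aldh1a7 passed too, with 0.25 (adjusted p = 0.0467). Without treated replicate 6 at 90 d, Adh4 (0.60, adjusted p = 0.0263) and Adh5 (0.25, adjusted p = 0.0302) passed. Under the Gapdh covariate none of the 9 genes passed, and Adh4 differed by 0.22 (adjusted p = 0.828).

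The treated mice were more spread than the vehicle mice. The SD was larger in treated mice for 8 of 9 genes at 21 d, with a median ratio of treated to vehicle SD of 1.59, and for 8 of 9 at 90 d, with a median ratio of 2.23. Over all genes the treated SD was the larger in 65.7% at 21 d, with a median ratio of 1.26, and in 72.0% at 90 d, with a median ratio of 1.33. The arrays at the edges were mostly the same ones: treated replicate 2 at 21 d was the highest of its group for 5 genes (Adh4, Adh5, Aldh1a1, Aldh1a7 and Aldh1b1) and the lowest for 3 (Adh7, Aldh2 and Aldh9a1). Treated replicate 6 at 90 d was the lowest of its group for 6 genes (Adh1, Adh4, Adh5, Aldh1a1, Aldh1a7 and Aldh1b1) and the highest for Aldh9a1.

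Deviations from the group means tied some genes together across the 23 arrays. Pearson's r was 0.80 between Adh4 and Aldh1a7 (Spearman's rho 0.70), 0.78 between Aldh1a7 and Aldh1b1 (rho 0.64), 0.73 between Adh4 and Aldh1b1 (rho 0.74), 0.74 between Aldh2 and Aldh9a1 (rho 0.71) and 0.68 between Adh1 and Aldh1a1 (rho 0.76). Adh4 and Aldh9a1 went opposite ways, with r = -0.58 (rho -0.34). These values describe 36 pairs on the same arrays, which share labelling and scaling, and carry no test. Leaving out the 5 arrays with a Gapdh difference over 0.9 and treated replicate 2 at 21 d keeps 17 arrays, none of a treated mouse at 21 d. Over these, r was 0.61 between Adh4 and Aldh1a7, 0.45 between Aldh1a7 and Aldh1b1 and 0.50 between Adh4 and Aldh1b1. It was 0.72 between Aldh2 and Aldh9a1, 0.52 between Adh1 and Aldh1a1 and 0.02 between Adh4 and Aldh9a1. Aldh1a1 with Aldh9a1 stood at 0.78, against 0.07 over 23 arrays.

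**Figure D4:**
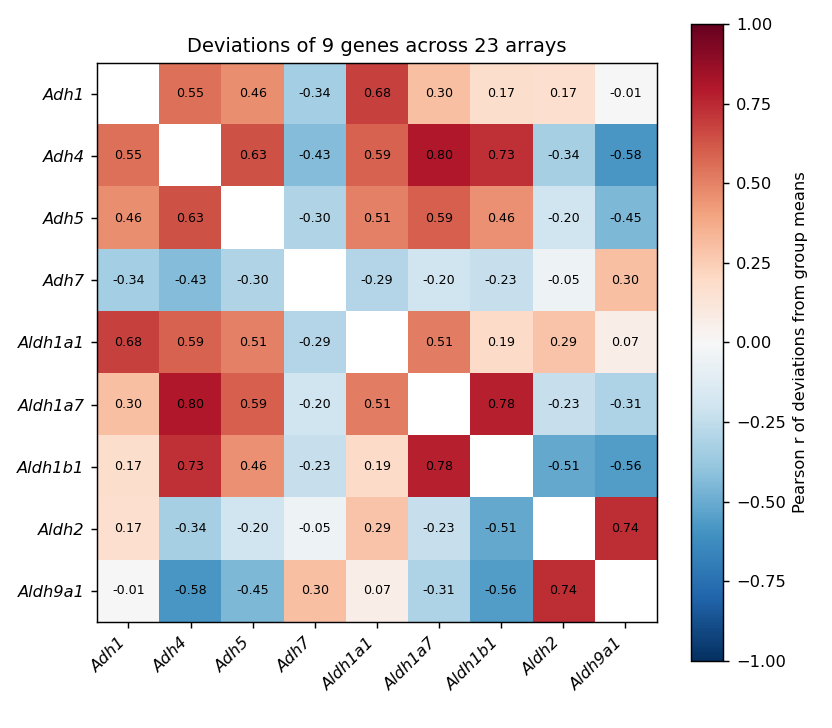
Pearson's r between the deviations of each pair of the 9 genes from their 4 group means, over 23 arrays (colour scale from -1 to 1). Adh4, Aldh1a7 and Aldh1b1 form a block with r from 0.73 to 0.80, and Aldh9a1 has negative values with Adh4 (-0.58) and Aldh1b1 (-0.56).

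Outside the set, the gene whose deviations were most like those of each member was found among 10835 genes with a mean signal of at least 6. For Adh4 it was Plin2, which coats lipid droplets, with r = 0.89 over 23 arrays, and 0.72 without the 2 arrays farthest from the median. For Adh5 it was Cbr3, a carbonyl reductase, with r = 0.86 and 0.80. For Aldh2 it was Aldh3a2, the fatty aldehyde dehydrogenase, with r = 0.89 and 0.83. The others, with r over 23 arrays and without the 2 farthest, were Fbxw9 for Adh1 (0.89 and 0.80), Tor2a for Adh7 (0.80 and 0.63) and Tex38 for Aldh1a1 (0.89 and 0.88). Mta3 was found for Aldh1a7 (0.86 and 0.71), Psen2 for Aldh1b1 (0.90 and 0.73) and Pi4k2b for Aldh9a1 (0.91 and 0.78). Each is the highest of many correlations and is given as a description.

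Other enzymes of the same routes were counted with the same fit. Each count below stands beside 1.17% of all genes that passed at 21 d and 0.748% at 90 d. At an unadjusted p under 0.05 these shares were 16.6% and 12.1%. Among 11 other alcohol dehydrogenases and alcohol-oxidising enzymes, 0 passed at either time, with the lowest adjusted p at 0.301 at 21 d and 0.0704 at 90 d, and the counts at an unadjusted p under 0.05 were 2 lower at 21 d and 3 higher at 90 d. Hsd17b6, a hydroxysteroid and retinol dehydrogenase, had the largest of these differences, 0.89 ± 0.22 at 90 d (SE, limma adjusted p = 0.0704), and passed with 1.10 (adjusted p = 0.0055) without the 5 arrays with a Gapdh difference over 0.9. With the mean of all its probe sets the difference was 0.50 ± 0.12 at 90 d (adjusted p = 0.0408), and with only the groups compared it was 0.89 (adjusted p = 0.169). The median difference of this list was -0.04 at 21 d and 0.09 at 90 d, beside -0.02 and 0.02 over all genes. Among 15 other aldehyde dehydrogenases, 0 passed at either time, with unadjusted counts of 1 higher and 2 lower at 21 d and 1 lower at 90 d. Their medians were -0.07 at 21 d and 0.00 at 90 d, and the largest differences were those of Aldh16a1 at 21 d (0.30, adjusted p = 0.113) and Aldh18a1 at 90 d (0.33, adjusted p = 0.739). With the Gapdh covariate Aldh16a1 differed by 0.08 (adjusted p = 0.911), and with the mean of all probe sets Aldh18a1 differed by 0.14 (adjusted p = 0.649).

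Aldehyde-clearing enzymes outside the dehydrogenases gave the same count, 0 of 15 at either time. At an unadjusted p under 0.05 there were 2 higher at 21 d, and 4 higher and 1 lower at 90 d. The share of all genes was 16.6% at 21 d and 12.1% at 90 d. The aldehyde oxidase Aox1 differed by 0.47 ± 0.12 at 21 d (SE, limma adjusted p = 0.0600), and the carbonyl reductase Cbr3 by 0.83 ± 0.20 at 90 d (adjusted p = 0.0600). Aox1 differed by 0.25 (adjusted p = 0.669) under the Gapdh covariate and by 0.05 (adjusted p = 0.974) without the 5 arrays, which leaves 1 treated array at 21 d. Cbr3 passed with 1.03 (adjusted p = 0.000713) without the 5 arrays and with 0.85 (adjusted p = 0.00617) under the Gapdh covariate. At 90 d Cbr3 did not pass with only the groups compared (adjusted p = 0.133) or with the replicate block (adjusted p = 0.0777). Nor did it with an intensity trend and robust prior (adjusted p = 0.0769). Among the genes with the largest differences of each list, calls that appeared on leaving out 1 array included those of Aox1 at 21 d (treated replicate 2 at 21 d or 3 at 90 d), Cbr3 at 90 d (the same arrays, or treated replicate 6 at 90 d), Hsd17b6 at 90 d (treated replicate 3 or 6 or vehicle replicate 6 at 90 d) and Aldh16a1 at 21 d (treated replicate 1 at 90 d), with adjusted p down to 0.00911, 0.00142, 0.00319 and 0.0486. Dhrs7b, of the alcohol-oxidising list, passed at 90 d without treated replicate 6 of that time (adjusted p = 0.0362, and 0.241 with all arrays). Dhrs7b also passed at 90 d with the Gapdh covariate (0.41, adjusted p = 0.011), and its difference was 0.51 without the 5 arrays. With only the groups compared Dhrs7b did not pass (adjusted p = 0.215). Aldh7a1 passed at 21 d without treated replicate 2 of that time (adjusted p = 0.0229, and 0.107 with all arrays). Among 15 mouse genes of sulfation, 1 passed at each time, as lower. Over all genes 1.17% passed at 21 d and 0.748% at 90 d. That gene, the sulfotransferase Sult1c2, fell by 0.60 ± 0.11 at 21 d (SE, limma adjusted p = 0.0149) and by 0.59 ± 0.11 at 90 d (adjusted p = 0.00917). Unadjusted counts were 1 lower at 21 d, and 1 higher and 3 lower at 90 d, beside 16.6% and 12.1% of all genes. The human SULT1A1 and SULT1A2 transgenes are not in this list. Whether Sult1c2 acts on 1-MIM-OH was not tested. At 21 d Sult1c2 did not pass with the fit limited to the groups compared (adjusted p = 0.0505) or with the replicate number as a block (adjusted p = 0.0575).

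Retinoid metabolism takes retinol through several members of the set. Of its 20 genes, 1 passed as higher at 21 d and 2 at 90 d, and none as lower. Over all genes 1.17% passed at 21 d and 0.748% at 90 d. At an unadjusted p under 0.05 the counts were 3 higher and 2 lower at 21 d, and 2 higher and 1 lower at 90 d. The shares of all genes at that threshold were 16.6% at 21 d and 12.1% at 90 d. The median difference of this list was -0.05 at 21 d and -0.07 at 90 d. Bco1, which cleaves carotene to retinaldehyde, rose by 0.41 ± 0.09 at 21 d (SE, limma adjusted p = 0.0315) and by 0.48 ± 0.09 at 90 d (adjusted p = 0.00755). Its call at 21 d was lost on leaving out any of 6 arrays (treated replicate 3 or vehicle replicates 2 to 6; adjusted p up to 0.0711), with only the groups compared (adjusted p = 0.0782) and with the replicate block (adjusted p = 0.0820). Rdh5, a retinol dehydrogenase, rose by 0.57 ± 0.11 at 90 d (adjusted p = 0.0191), a call lost without treated replicate 1 or 2 or vehicle replicate 1 or 6 (adjusted p up to 0.0657). In the Fanconi pathway, which repairs DNA crosslinks that aldehydes can form, 0 of 10 genes passed at either time, and 0 had an unadjusted p under 0.05. The markers of the liver's zones were counted too: of 13 pericentral genes 1 rose at 21 d (Gulo, 0.43, adjusted p = 0.0136) and 0 at 90 d, and of 10 periportal genes 1 fell at 21 d (Hsd17b13, -0.51, adjusted p = 0.0303) and 0 at 90 d. Under the Gapdh covariate neither call held: Gulo differed by 0.28 ± 0.09 (adjusted p = 0.265), while Hsd17b13 kept its difference of -0.51 with an SE of 0.14 in place of 0.11 (adjusted p = 0.192). The Hsd17b13 call was also lost on leaving out any of 5 arrays of 21 d (treated replicate 1 or vehicle replicates 2 to 5, adjusted p up to 0.0882). Without the arrays with a Gapdh difference over 0.9, which leaves 1 treated array at 21 d, Hsd17b13 differed by -0.75 there. At 90 d Hsd17b13 differed by -0.44 ± 0.11 (limma adjusted p = 0.062), and the effect at 90 d minus that at 21 d was 0.07 ± 0.15. At 90 d it passed with the Gapdh covariate (adjusted p = 0.0453) and with array weights (adjusted p = 0.0303). It also passed there with a mean signal of at least 6 (adjusted p = 0.0419) and with the mean of all its probe sets (-0.42, adjusted p = 0.00564). It did not pass at 90 d with only the groups compared (adjusted p = 0.0524) or the replicate block (adjusted p = 0.0643).

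**Figure D5:**
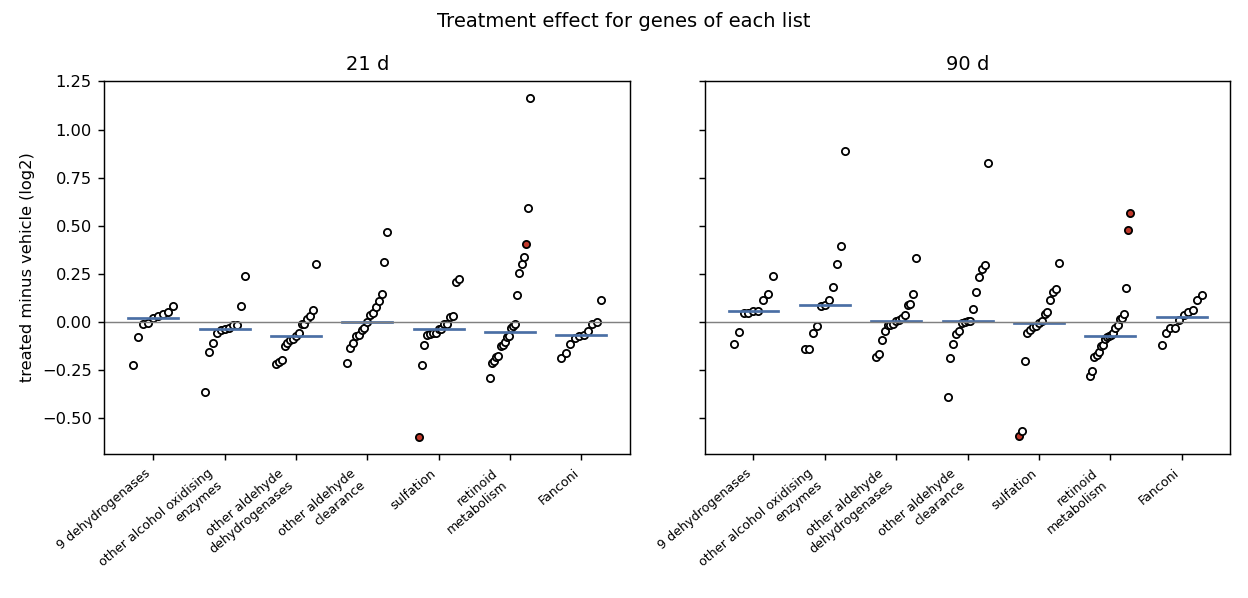
Treated minus vehicle signal (log2) of the 9 dehydrogenase genes and of the measured genes of 6 lists at 21 d (left) and 90 d (right); each point is 1 gene, red points passed (limma adjusted p under 0.05), blue lines are medians. The 9 genes lie between -0.22 and 0.24 at both times with no red point; red points appear only for Sult1c2, Bco1 and Rdh5.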

How the data were processed

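Liver RNA of 23 mice was measured on Affymetrix Mouse Genome 430 2.0 arrays, 1 array per animal, and replicates are separate mice. The authors deposited log2 values, made with Partek and RMA (robust multi-array average) per the submitters' processing notes, with versions not given in the sources used here. That the base is 2 is inferred from the range, 2.23 to 15.41. RMA brings arrays to a common distribution, so a shift shared by all genes would not show. The number of arrays limits the precision.

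From these values, 64 control probe sets were left out, and the means of the 4 groups (treated and vehicle at 21 d and at 90 d) were fitted to 45037 probe sets in R 4.3.3 with limma 3.58.1 (lmFit, eBayes; 19 residual degrees of freedom). The 5 comparisons were treated against vehicle at each time, the difference of these effects, and 90 d against 21 d within vehicle and within treated mice. P-values were adjusted by Benjamini-Hochberg over all probe sets, with a threshold of 0.05. Control differences were compared by 2-sided exact permutation tests. The fit was tested on simulated data.

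The platform annotation paired 34945 probe sets with 1 gene, 932 with several and 9160 with none in the table used. All 9 genes matched RefSeq by gene ID; promoter sequences are those of RefSeq (GRCm38.p6), whose table had an entry for 8 of them, and Aldh2 is named only. All 9 genes were to be named, with up to 4 passing genes of each list and time or else the 2 with the largest difference, of which the report gives those nearest to the dehydrogenases, and the gene outside the set most like each member. The genes of the set and the lists were chosen with earlier results of these data known. Alternatives were the mean of all probe sets, a mean signal of at least 6, other scalings, a trended robust prior, array weights, only the groups compared, a replicate block, the Gapdh difference as a covariate or limit (0.9), and leaving out each array.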

Additional observations from a re-analysis of the deposited data

Results flagged for a closer look

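In all, 4 values stood apart from their group by Dixon's criterion at the 95% level, among 64 combinations of a probe set and a group tested; chance alone marks about 1 in 20. Adh1 in treated replicate 1 at 21 d was 14.34, below the 14.49 to 14.54 of the other treated mice. Adh4 in treated replicate 6 at 90 d was 12.46, below the 12.98 to 13.14 of the others, and that array had a Gapdh 3' minus 5' difference of 1.24. Adh7 in vehicle replicate 4 at 21 d was 6.55, below the 6.77 to 6.89 of the others. Aldh1b1 in treated replicate 2 at 21 d was 10.93, above the 10.15 to 10.24 of the others, and that array had the highest acute phase mean of its group, 13.83.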

How the results depend on the processing

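The count of dehydrogenase genes passing was 0 in each comparison under most alternatives. Without the arrays with a Gapdh difference over 0.9 it was 1 for treated against vehicle mice at 21 d (Aldh1b1, with 1 treated array left and its spread taken from the other groups) and 1 at 90 d (Adh4). Leaving out each array in turn gave 0 to 1 genes at 21 d, 0 to 0 at 90 d, for the contrast of the effects and between vehicle mice, and 0 to 3 for treated mice at 90 d against 21 d. Of 1476 values of single genes of the set under alternatives, 1372 kept their direction and their side of the threshold, 8 came to pass, and 96 changed sign while not passing; no gene of the set passed with the settings used throughout, so no call could be lost. The causes were not tested. With the replicate block 0 genes passed, and Adh4 differed by -0.27 at 21 d (adjusted p = 0.381) and 0.24 at 90 d (adjusted p = 0.608). Whether equal numbers pair the mice is not given by the labels. The deviations of same-numbered mice correlated between -0.358 and -0.139 in 11 pairs. That cannot decide it, because no values for differently numbered mice stand beside them. The fit limited to the groups compared gives no difference of effects.

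Over all mouse probe sets, the count passing at 21 d was 431, with alternatives at 240 (genes, by the mean of their probe sets), 813 (mean of at least 6), 1426 (array weights), 207 (only the groups compared), 91 (replicate block) and 123 (Gapdh covariate), and 133 to 2265 on leaving out 1 array. At 90 d it was 226, with 463 (weights), 149 (only the groups), 148 (block), 504 (covariate), 761 (without the 5 arrays) and 114 to 389 on leaving out 1 array. The difference of effects had 0, with 6 without the 5 arrays and 0 to 53 on leaving out 1 array. Vehicle mice had 3, with 14 (gene means), 6 (mean of at least 6), 6 (quantile scaling), 8 (median centring), 7 (trended prior), 32 (weights), 20 (only the groups), 0 (block), 18 (without the 5 arrays) and 0 to 16 on leaving out 1 array. Treated mice at 90 d against 21 d had 34, with 2 (only the groups), 12 (covariate), 77 (without the 5 arrays) and 10 to 1644 on leaving out 1 array. The highest counts at 21 d and for treated mice came without treated replicate 2 at 21 d. The Gapdh control difference between treated and vehicle mice was 0.56 to 0.89 at 21 d and -0.11 to 0.11 at 90 d on leaving out 1 array, and that of beta-actin, 0.58 at 21 d and -0.05 at 90 d, was 0.49 to 0.79 and -0.20 to 0.018.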
